A study of Mus musculus with 10 samples.

Results

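The genes described here are 39 enzymes and transporters of glucose breakdown, chosen by name: 14 of glycolysis, 3 of lactate handling, 8 that carry pyruvate into the mitochondrial cycle or control that step, and 14 of the citrate cycle and its close isozymes. They were followed in the neocortex of male mice, where 17876 genes were covered by probe sets that match a single gene. Of the 39 genes, 36 were tested and Gapdh, Pgk1 and Pgam1 were represented by probe sets shared with other genes. One group held 5 mice of 5 months and the other 5 mice of 30 months, and each mouse gave 1 Affymetrix M430 2.0 array. All mice of both ages were B6C3F1, the B6xC3 F1 hybrid, were housed singly and were fed a control diet (AIN-93M), and the labels name no transgene and no drug. The labels number the mice 1 to 5 at 5 months and 2 to 6 at 30 months, and arrays are given in that order below. The question put by the labels is which transcripts differ between young adult and old neocortex, and it is asked here of energy metabolism.

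Glycolysis splits glucose into pyruvate in the cytosol, and hexokinase, phosphofructokinase and pyruvate kinase catalyse its irreversible steps. Pyruvate is then either reduced to lactate or moved into mitochondria, where the pyruvate dehydrogenase complex turns it into acetyl-CoA for the citrate cycle and pyruvate carboxylase turns it into oxaloacetate that refills the cycle. Brain relies on glucose for nearly all of its energy. Neurons oxidise much of the pyruvate, while astrocytes carry out most of the pyruvate carboxylation and pass lactate to their surroundings.

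Among these genes the largest differences between the ages were the higher Pcx, Idh1, Pdk4 and Pdk2 at 30 months, 3 of which act on the entry of pyruvate into the cycle. Glycolysis and the citrate cycle each held called and uncalled genes. Values are deposited probe set signals, changes are differences of mean log2 signal (30 months minus 5 months), and a gene was called at a limma adjusted p under 0.05 over all 11963 genes tested. Of the 36 tested members, 15 were called higher at 30 months (41.7%), 4 were called lower (11.1%) and 17 were not called. Over all genes 34.0% were called higher and 12.3% lower, so these shares were near the background. In 13 members every old array lay above every young array, against 24.5% of all genes, and in 3 every old array lay below, against 5.75%. The median change of the members was 0.09 and that of all genes 0.08.

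Split by role, pyruvate entry had 5 of 8 members higher and 2 lower, with a median change of 0.27. Glycolysis had 5 of 11 higher and 0 lower, with a median of 0.08. The citrate cycle had 5 of 14 higher and 2 lower, with a median of 0.03. None of the 3 lactate members was called, and their median was 0.10. These medians rest on the brightest probe set of each gene. With the mean of a gene's tested probe sets instead, the median was 0.24 for glycolysis, 0.11 for the citrate cycle and 0.067 for all genes. The glycolysis median was 0.04 without the 5-month mouse 5 and 0.13 without the 5-month mouse 1, and a difference between the groups was not tested. In 45037 probe sets of the authors' deposited table, 8.96% met the authors' criteria, a lower bound of the fold above 1.2 and a p-value of at most 0.1. Of the brightest probe sets of the 36 tested members 4 met them, all higher: Pcx at 1.92-fold, Idh1 at 1.66-fold, Pdk4 at 1.56-fold and Pdk2 at 1.44-fold. Dimmer and shared probe sets of the members were not counted. The share over 45037 probe sets also covers dim probe sets that were not tested here, so the bases differ.

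**Figure D1:**
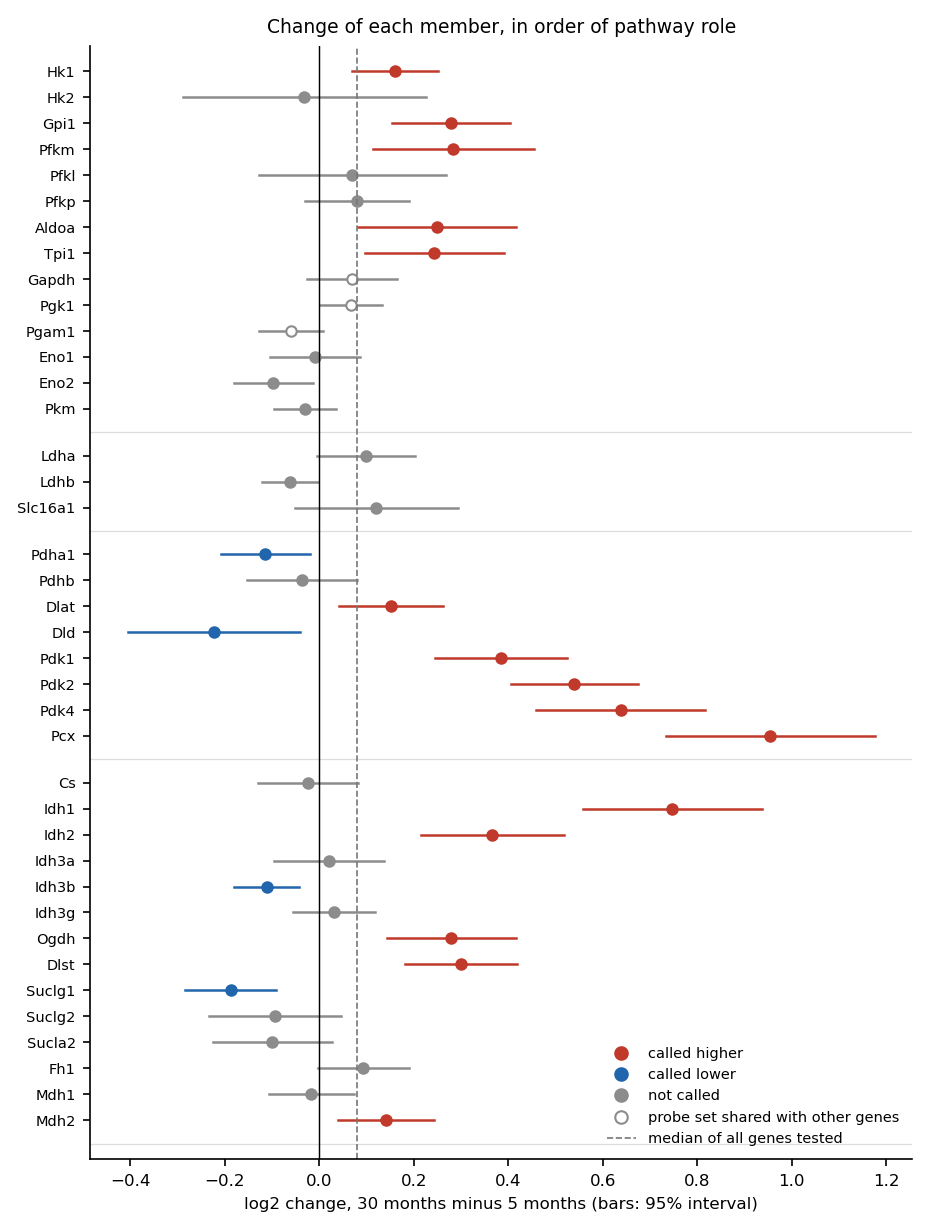
Log2 change (30 months minus 5 months) of each member in pathway order, with 95% intervals as bars, calls in colour, open points for probe sets shared with other genes and the median of all genes as a dashed line. Pcx, Idh1, Pdk4 and Pdk2 stand farthest to the right, between 0.54 and 0.95, and most other members lie near the median of 0.08.

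One young array stood apart in most of these genes. The 5-month mouse 5 gave the lowest young signal in 25 of 36 members (69.4%) and in 10 of 11 tested glycolytic genes, against 41.0% of all genes tested. The 5-month mouse 1 gave the highest young signal in 23 members (63.9%), against 31.9% of all genes. As the median deviation from the 5-month mean over the glycolytic genes, the young mice 1 to 5 stood at 0.11, −0.00, 0.07, 0.04 and −0.23, and the old mice between 0.06 and 0.14. Without the 5-month mouse 5 the 5 higher glycolytic genes were still called. Leaving out any single array left the call of 31 of the 36 members as it was, and the 5 exceptions, Pdha1, Dld, Dlat, Mdh2 and Eno2, are marked where they are described. With 1 array per mouse, a property of the mouse and one of its array cannot be told apart.

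**Figure D2:**
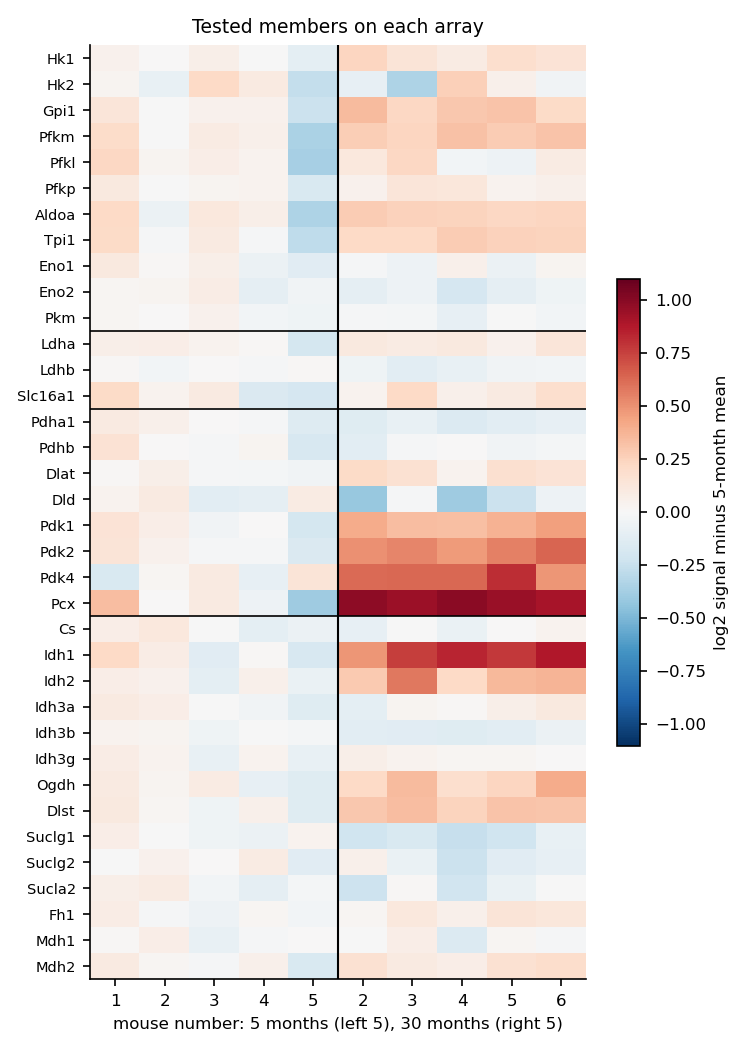
Log2 signal minus the 5-month mean (colour) of each tested member (rows, in pathway order) on each of the 10 arrays (columns, 5 young on the left). The 5-month mouse 5 is below the other young mice through most of glycolysis, and Pcx, Pdk2, Pdk4 and Idh1 are raised on every old array.

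The sequences upstream of some of these genes are shown because glycolytic and pyruvate enzymes are textbook targets of hypoxia-inducible factor, whose core site is ACGTG or GCGTG. The windows hold the 250 bases before the gene's start in RefSeq (GRCm38.p6), 5′ to 3′ on the gene's strand, with matches to ACGTG or GCGTG on either strand in capitals. Where matches on both strands overlap they form CACGTG. Tpi1 was called higher and its window (chr6:124814159-124814408, minus strand) held no match. Pcx had the largest increase (chr19:4510222-4510471, plus strand, the first of 2 windows). Ldha was not called and held the most matches of the 5 windows shown (chr7:46845554-46845803, plus strand, the first of 2 windows). Pgk1 was measured only on shared probe sets (chrX:106186850-106187099, plus strand). Suclg1 was called lower (chr6:73248255-73248504, plus strand).
Tpi1: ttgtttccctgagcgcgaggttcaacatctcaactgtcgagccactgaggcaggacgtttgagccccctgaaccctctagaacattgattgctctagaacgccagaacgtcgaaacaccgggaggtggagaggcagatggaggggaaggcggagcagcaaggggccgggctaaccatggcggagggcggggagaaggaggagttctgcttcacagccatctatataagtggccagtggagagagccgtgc
Pcx: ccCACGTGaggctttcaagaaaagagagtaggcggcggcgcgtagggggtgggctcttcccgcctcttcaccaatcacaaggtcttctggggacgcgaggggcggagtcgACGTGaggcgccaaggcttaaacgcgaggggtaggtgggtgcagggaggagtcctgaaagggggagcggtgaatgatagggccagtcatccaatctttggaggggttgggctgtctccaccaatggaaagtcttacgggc
Ldha: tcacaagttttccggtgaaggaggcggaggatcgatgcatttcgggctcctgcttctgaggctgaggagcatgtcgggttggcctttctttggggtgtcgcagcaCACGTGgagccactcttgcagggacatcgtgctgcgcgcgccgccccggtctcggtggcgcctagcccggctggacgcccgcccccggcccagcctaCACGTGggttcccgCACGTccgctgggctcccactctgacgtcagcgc
Pgk1: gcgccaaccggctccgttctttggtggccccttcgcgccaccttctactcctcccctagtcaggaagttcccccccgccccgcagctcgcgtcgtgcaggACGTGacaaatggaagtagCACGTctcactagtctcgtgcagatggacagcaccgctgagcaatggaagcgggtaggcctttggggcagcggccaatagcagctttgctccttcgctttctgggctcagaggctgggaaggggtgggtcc
Suclg1: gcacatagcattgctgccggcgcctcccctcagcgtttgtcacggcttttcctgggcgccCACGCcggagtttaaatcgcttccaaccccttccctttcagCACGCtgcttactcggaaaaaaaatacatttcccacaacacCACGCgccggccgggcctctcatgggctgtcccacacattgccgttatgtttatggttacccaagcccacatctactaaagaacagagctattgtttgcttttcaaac
ACGTG occurred in 36.8% of the 57 windows of the members and in 16.6% of all 32851 RefSeq windows, and GCGTG in 47.4% and 28.2%. Either core occurred in 63.3% of the 30 windows of 15 members called higher and in 75.0% of the 20 windows of 16 members not called. Members called lower had only 4 windows, and 2 of these held a core (50.0%). Of all windows 38.6% held one. A gene with several windows was counted once per window. AAGGTCA, the site of estrogen-related receptors, which are regulators of mitochondrial genes, occurred in 1.75% of the members' windows and 4.08% of all. Idh3a had no entry in the table of windows. These matches describe the letters of the windows only.

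Among the 8 genes of pyruvate entry, Pcx, pyruvate carboxylase, had the largest change of all members. Its signal was 521, 412, 441, 396 and 314 at 5 months and 811, 788, 820, 794 and 773 at 30 months. Every old array lay above every young one, the old arrays differed little among themselves, and the young arrays ran from mouse 5 as the lowest to mouse 1 as the highest. Pcx rose 1.94-fold, a log2 change of 0.95 (SE 0.10, limma adjusted p = 2.27e-05), and by 0.86 without the 5-month mouse 5.

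Of the kinases that phosphorylate and so switch off the pyruvate dehydrogenase complex, Pdk1, Pdk2 and Pdk4 were called higher. Pdk3, the kinase outside the 39 genes, was tested and was not called (difference 0.0093, limma adjusted p = 0.937). Pdk4, the isoform tied to fasting and fat use in other tissues, read 149, 170, 179, 156 and 184 at 5 months and 257, 259, 259, 293 and 234 at 30 months. Pdk2, a widely expressed isoform, read 628, 587, 563, 565 and 510 in the young and 808, 826, 786, 836 and 885 in the old. For both kinases all old arrays were above all young arrays, with clear space between the ages. Pdk4 rose 1.56-fold (log2 change 0.64, SE 0.08, limma adjusted p = 7.42e-05) and Pdk2 rose 1.45-fold (0.54, SE 0.06, adjusted p = 3.29e-05). Pdk1, a target of hypoxia-inducible factor, read 711, 673, 624, 643 and 560 in the young and 848, 812, 807, 836 and 876 in the old, again without overlap. Pdk1 rose by 0.38 (SE 0.06, limma adjusted p = 4.37e-04) on its brightest probe set, while its 3 other tested probe sets had a difference of 0.03 to 0.19 and were not called.

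The subunits of the complex itself gave no common direction. Pdha1, the catalytic alpha subunit that the kinases phosphorylate, read 4649, 4531, 4354, 4306 and 3943 at 5 months and 3956, 4103, 3915, 4023 and 4091 at 30 months. Only the young mouse 5 fell within the range of the old arrays, and Pdha1 fell by 0.11 (SE 0.04, limma adjusted p = 0.0450). That call rests on the full set of arrays: leaving out any 1 of 9 arrays, all but the 5-month mouse 5, ended it (limma adjusted p = 0.0566 to 0.106). It was also lost in the fit over all probe sets (limma adjusted p = 0.0522). There the dimmer probe set of Pdha1 had a difference of −0.03 and was not called (limma adjusted p = 0.930). Dld, the dihydrolipoamide dehydrogenase shared with the oxoglutarate complex, read 1176, 1224, 1057, 1068 and 1217 in the young and 857, 1136, 872, 973 and 1105 in the old. The old mice 3 and 6 overlapped the young range, and Dld fell by 0.22 (SE 0.08, limma adjusted p = 0.0443). Leaving out the 5-month mouse 1, 2 or 5 or the 30-month mouse 2, 4 or 5 ended that call (limma adjusted p = 0.0754 to 0.104). In the fit over all probe sets Dld was not called (limma adjusted p = 0.0524). Dlat, the acetyltransferase core, rose by 0.15 (limma adjusted p = 0.0267), but its 2 dimmer probe sets had a difference of −0.09 and −0.11 and were not called. The call of Dlat ended without the 5-month mouse 4 or the 30-month mouse 2, 3 or 5 (limma adjusted p = 0.0537 to 0.0633). Pdhb, the beta subunit, had a difference of −0.04 (limma adjusted p = 0.595).

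**Figure D3:**
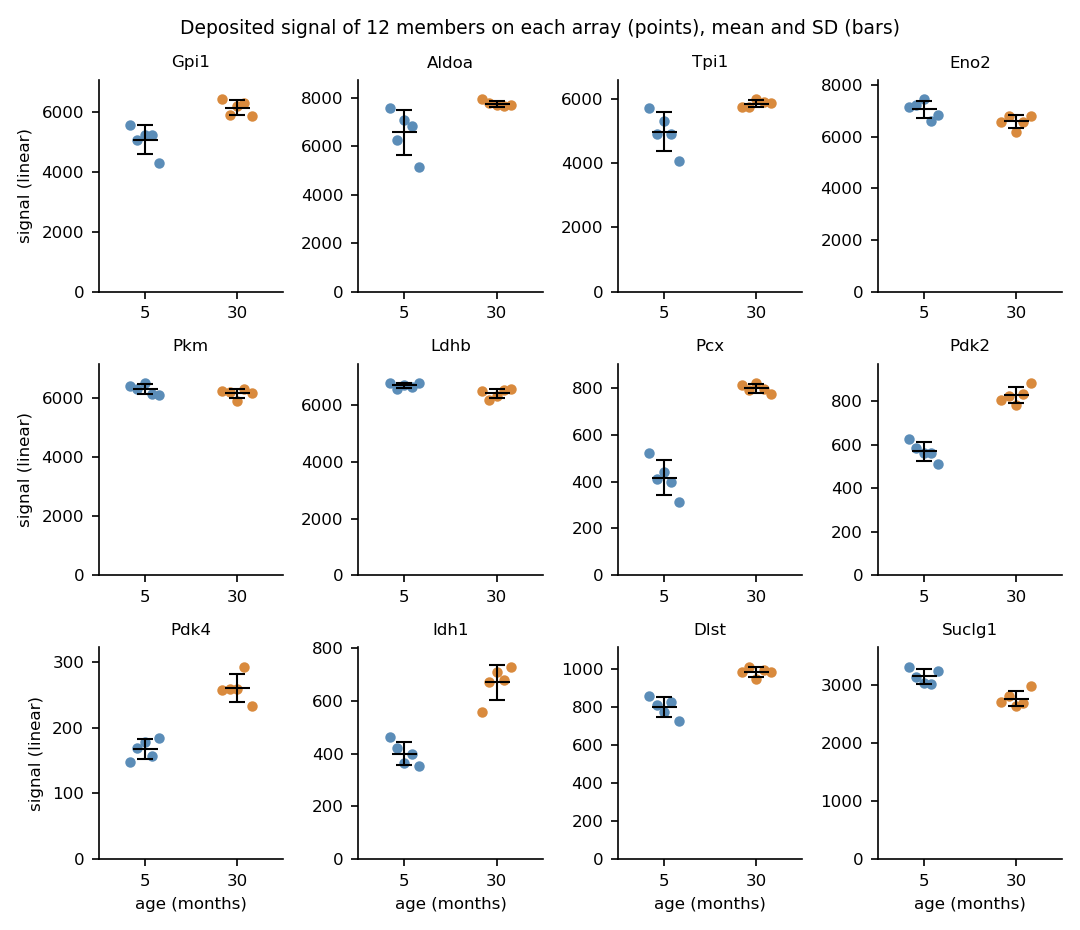
Deposited signal (linear scale) of 12 members on each of the 5 arrays per age, as points, with the mean and SD as bars. For Pcx, Pdk2, Pdk4 and Idh1 the 5 old arrays sit wholly above the 5 young arrays, and for Suclg1 they sit wholly below.

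In glycolysis the called genes lay in its first stretch, from hexokinase to triose phosphate isomerase. Hk1, the main brain hexokinase, read 3803, 3703, 3854, 3677 and 3428 in the young and 4353, 4069, 3917, 4204 and 4087 in the old, and rose by 0.16 (limma adjusted p = 0.00708). Gpi1, glucose-6-phosphate isomerase, read 5576, 5061, 5251, 5242 and 4311 against 6438, 5927, 6211, 6317 and 5869. It rose by 0.28 (SE 0.06, limma adjusted p = 0.00180), and the old arrays of both Hk1 and Gpi1 lay above all young arrays. Hk2, the insulin-responsive hexokinase of muscle and fat, had a difference of −0.03 (limma adjusted p = 0.847) and had a wide spread at both ages, from 112 to 156 in the young and from 106 to 160 in the old.

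Of the 3 phosphofructokinase genes, the subunits of the main control step, only Pfkm, the muscle type, was called. Pfkm read 3451, 2989, 3185, 3119 and 2355 at 5 months and 3623, 3537, 3736, 3628 and 3717 at 30 months, and rose by 0.28 (SE 0.08, limma adjusted p = 0.00983). Its old arrays lay above the young arrays and close together, whereas the young mouse 5 stood well below the other young mice. Pfkp, the platelet type, had a difference of 0.08 and Pfkl, the liver type, of 0.07 (limma adjusted p = 0.214 and 0.560). A dimmer probe set of Pfkp was called higher, at 0.20 (limma adjusted p = 0.0105 over all 19839 probe sets tested).

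Aldoa, aldolase A, which cuts fructose bisphosphate, read 7588, 6247, 7093, 6844 and 5158 in the young and 7946, 7776, 7722, 7655 and 7691 in the old. Tpi1, triose phosphate isomerase, read 5715, 4898, 5305, 4905 and 4071 in the young and 5745, 5763, 5993, 5905 and 5874 in the old. In both genes the young mouse 1 came close to the old arrays and the young mouse 5 was the lowest, while the 5 old arrays were nearly alike. Aldoa rose by 0.25 and Tpi1 by 0.24 (limma adjusted p = 0.0188 and 0.0107). Without the 5-month mouse 5 the change of Aldoa was 0.16 (limma adjusted p = 0.0118) and that of Tpi1 was 0.17 (limma adjusted p = 0.00781). All 3 tested probe sets of Tpi1 were called higher, at 0.24 to 0.37.

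The lower stretch of glycolysis, where the triose phosphates are oxidised and energy is recovered, had no called gene. Eno2, the neuronal enolase, read 7157, 7210, 7450, 6601 and 6857 in the young and 6567, 6796, 6198, 6583 and 6820 in the old, with overlap. Its change of −0.10 was not called (limma adjusted p = 0.0527), but was called lower without the 5-month mouse 4 or 5 or the 30-month mouse 6 (limma adjusted p = 0.0221 to 0.0480). Eno1, the ubiquitous enolase, had a difference of −0.01 and Pkm, pyruvate kinase, of −0.03 (limma adjusted p = 0.876 and 0.433). For Pkm the 95% interval in the deposited scaling was −0.10 to 0.04, and with arrays set to the same median over the genes tested its difference was −0.13 and was called lower (limma adjusted p = 0.00474). Gapdh, Pgk1 and Pgam1 could be read only on shared probe sets, the brightest tied to 31, 4 and 5 gene identifiers, which include near-identical copies. Fitted with the brightest of these, Gapdh, glyceraldehyde phosphate dehydrogenase, had a difference of 0.07, Pgk1, phosphoglycerate kinase, of 0.07 and Pgam1, phosphoglycerate mutase, of −0.06 (limma adjusted p = 0.220, 0.0895 and 0.138). Dimmer shared probe sets had a difference of 0.13 and −0.13 for Gapdh and of −0.02 and 0.09 for Pgk1. None of them was called, and the sign differed between the probe sets of both genes.

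Counted by stretch, a division chosen after the values were seen, 5 of 8 genes from hexokinase to triose phosphate isomerase were higher and 0 lower, with a median of 0.20. From Gapdh to Pkm, 0 of 6 genes were called in either direction, with a median of −0.02; 3 of these 6 rest on shared probe sets. After quantile normalization the medians of the stretches kept this order, at 0.19 and −0.02. There 5 genes of the first stretch were called higher, and in the second 1 was called higher and 1 lower. The higher one was Pgk1 on its brightest shared probe set (0.08, limma adjusted p = 0.0337). The lower one was Eno2 (−0.10, limma adjusted p = 0.0267). Setting arrays to the same median shifts every gene of an array alike, so it could not change this order. In the scaling that centred the genes tested the medians were 0.10 and −0.12. In that scaling 2 genes of the first stretch were called higher and 3 of the second lower. The difference between the stretches was not tested.

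At the lactate branch, Ldha, the lactate dehydrogenase subunit that is common in muscle, read 4621, 4657, 4555, 4450 and 3874 in the young and 4773, 4707, 4768, 4572 and 4863 in the old. The ages overlapped only through the lowest old array, and the change of 0.10 was not called (limma adjusted p = 0.107). Ldhb, the heart-type subunit that is common in neurons, read 6788, 6585, 6734, 6664 and 6791 in the young and 6500, 6206, 6332, 6547 and 6565 in the old. Each old array was below each young array, but the change was small, −0.06, and was not called (limma adjusted p = 0.0832). Of the other 4 tested probe sets of Ldhb, 2 were called lower (−0.11 and −0.43) and the remaining ones had a difference of −0.06 and 0.05. Slc16a1, the lactate and pyruvate carrier MCT1, had a difference of 0.12 (limma adjusted p = 0.235).

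In the citrate cycle group the largest increases were those of the NADP-dependent isocitrate dehydrogenases, which supply reducing power rather than NADH for respiration. Idh1, the cytosolic enzyme, read 462, 420, 364, 400 and 351 at 5 months and 558, 673, 709, 680 and 730 at 30 months, and rose 1.68-fold (0.75, SE 0.09, limma adjusted p = 3.74e-05). Idh2, the mitochondrial enzyme, read 736, 722, 649, 727 and 665 against 855, 1047, 814, 896 and 906, and rose by 0.37 (SE 0.07, limma adjusted p = 0.00104). The old arrays of both lay above all young arrays, with mouse 2 the lowest old array for Idh1 and mouse 4 for Idh2. A second, dimmer probe set of Idh1 had a difference of 0.21 and was not called.

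The subunits of the NAD-dependent isocitrate dehydrogenase, the rate-setting enzyme of the cycle, did not follow them. Idh3b, the beta subunit, read 4904, 4872, 4623, 4755 and 4708 in the young and 4397, 4388, 4339, 4396 and 4572 in the old. Every old array was below every young array, and Idh3b fell by 0.11 (SE 0.03, limma adjusted p = 0.0120), with its second probe set also lower (−0.13). The call of Idh3b ended with arrays set to the same median over all probe sets (−0.09, limma adjusted p = 0.111) and without a variance trend (adjusted p = 0.0548). Idh3g, the gamma subunit, had a difference of 0.03 (limma adjusted p = 0.556). Idh3a, the catalytic subunit, had a difference of 0.02 on its brightest probe set (limma adjusted p = 0.782), while another was called lower at −0.24 and a dimmer one was called higher at 0.45, so no direction can be given for this gene.

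The oxoglutarate dehydrogenase complex, which acts next, was higher in the subunits particular to it. Ogdh, the dehydrogenase, read 1341, 1280, 1334, 1179 and 1140 in the young and 1453, 1597, 1425, 1474 and 1663 in the old, and rose by 0.28 (SE 0.06, limma adjusted p = 0.00296). Dlst, the succinyltransferase core, read 859, 813, 773, 828 and 728 against 982, 1012, 945, 993 and 986, and rose by 0.30 (SE 0.06, limma adjusted p = 7.88e-04). Neither gene overlapped between the ages on its brightest probe set. The third component, Dld, was the one that fell. The second probe set of Dlst, a dimmer one, had a difference of 0.05 and was not called.

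Succinyl-CoA ligase, which makes succinate and a nucleoside triphosphate, was lower in its shared alpha subunit. Suclg1 read 3312, 3136, 3036, 3014 and 3231 in the young and 2702, 2800, 2640, 2695 and 2974 in the old, with the old mouse 6 just below the lowest young array. Suclg1 fell by 0.19 (SE 0.04, limma adjusted p = 0.00401). Its partners Sucla2, the ATP-forming beta subunit, and Suclg2, the GTP-forming one, had a difference of −0.10 and −0.09 and were not called (limma adjusted p = 0.177 and 0.249). A dimmer probe set of Suclg2 was called higher, at 0.38 (limma adjusted p = 0.0119), opposite in sign to the brightest.

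Around the rest of the cycle the changes were small. Mdh2, mitochondrial malate dehydrogenase, read 5160, 4870, 4782, 4994 and 4293 in the young and 5418, 5159, 5054, 5405 and 5504 in the old, and rose by 0.14 (SE 0.05, limma adjusted p = 0.0259) with overlap. The call of Mdh2 ended without the 5-month mouse 3 or the 30-month mouse 2, 5 or 6 (limma adjusted p = 0.0504 to 0.0601). Mdh1, its cytosolic isozyme of the malate-aspartate shuttle, had a difference of −0.02, and Fh1, fumarase, of 0.09 (limma adjusted p = 0.763 and 0.105). A dimmer probe set of Mdh1 was called lower, at −0.11 (limma adjusted p = 0.0230), and another had a difference of −0.002 and was not called. Cs, citrate synthase, which starts the cycle, had a difference of −0.02 on its brightest probe set (limma adjusted p = 0.708), but its second probe set was called higher at 0.29 (limma adjusted p = 5.75e-04). Restricted to the 11 mitochondrial enzymes of the cycle proper, 3 were higher and 2 lower, with a median of 0.02.

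**Figure D4:**
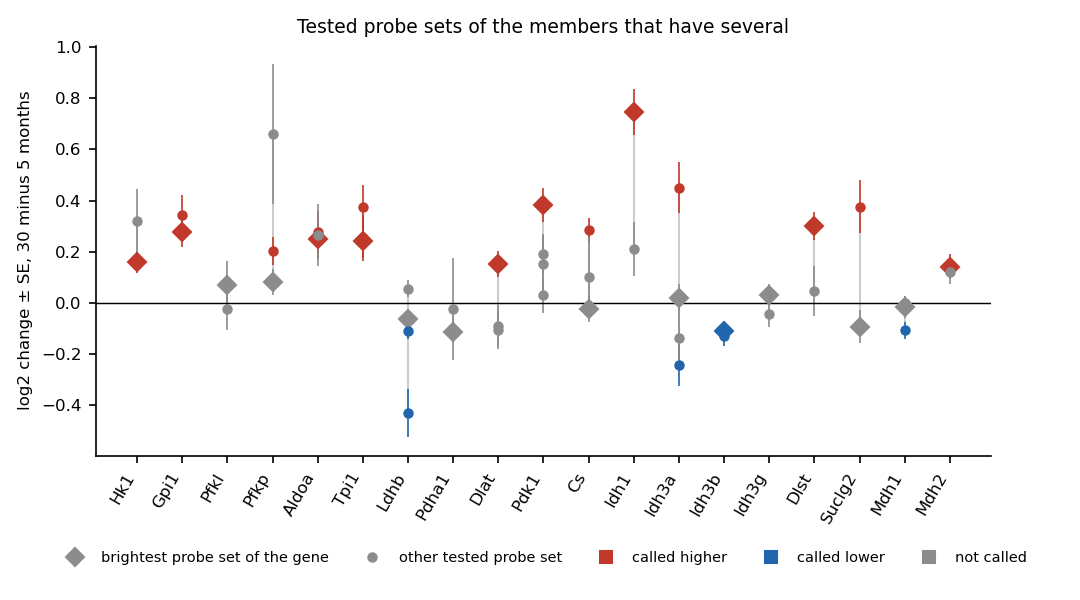
Log2 change with its SE for every tested probe set of the 19 members that have several, with diamonds for the brightest probe set and colours for the calls. Tpi1 and Gpi1 are higher on every probe set, Idh3b is lower on both, and Idh3a has probe sets called in both directions.

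Several tested probe sets were available for 19 members. In 6 of them all gave the same call, in 13 at least 1 probe set gave another call, in 7 the sign differed, and Idh3a alone was called in both directions. These calls are those of the fit over all probe sets. Pdha1 is among the 6 because neither of its probe sets was called there. Probe sets shared with near copies were left out of these counts. Those of Aldoa (0.38 and 0.62), Gpi1 (0.30) and Hk1 (0.19) were called higher, and that of Eno1 had a difference of −0.07 and was not called. Of the probe sets with 1 gene, the dimmer one of Hk1 (0.32), the dimmest of Aldoa (0.26) and the dimmer one of Mdh2 (0.12) were not called (limma adjusted p = 0.0611, 0.0971 and 0.0630).

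The direction of small changes depended on how the arrays were brought to one scale. The deposited scaling left the median of all genes 0.08 higher at 30 months, and setting each array to the same median over the genes tested moved that median by about 0.10, to −0.02. In that scaling 10 members were higher and 11 lower, beside 2535 and 2862 of all genes. Hk1, Aldoa, Tpi1, Dlat and Mdh2 were then no longer called, with changes of 0.06 for Hk1, 0.15 for Aldoa and 0.14 for Tpi1 (limma adjusted p = 0.212, 0.0991 and 0.0800). Eno2 (−0.20), Pkm (−0.13), Ldhb (−0.16), Pdhb, Mdh1, Suclg2 and Sucla2 were called lower. With arrays set to the same median over all probe sets, Idh3b, Pdha1 and Dld were no longer called lower (limma adjusted p = 0.111, 0.167 and 0.0970). After quantile normalization 14 members were higher and 7 lower, beside 22.9% and 20.3% of all genes. That scaling did not move all genes alike: Ogdh went from 0.28 to 0.15 and Dlst from 0.30 to 0.17, both still called, and Dlat from 0.15 to 0.03, not called, while Aldoa went from 0.25 to 0.26. In every alternative processing tried, 10 of the 15 higher members remained higher: Pcx, Pdk1, Pdk2, Pdk4, Idh1, Idh2, Ogdh, Dlst, Gpi1 and Pfkm. Of the 4 lower members only Suclg1 remained lower in all of them.

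**Figure D5:**
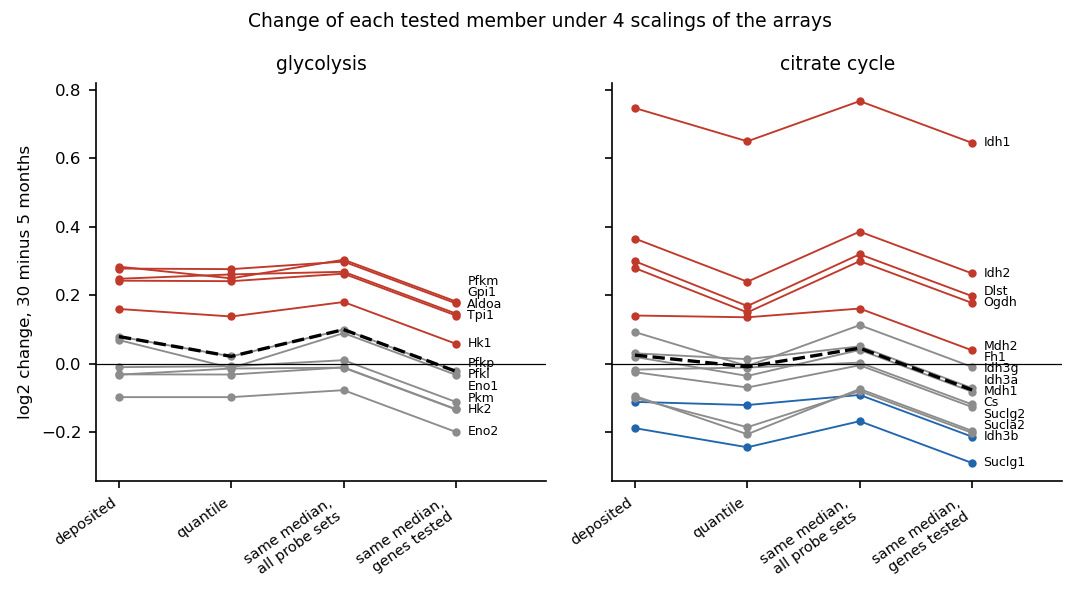
Log2 change (30 months minus 5 months) of each tested glycolysis and citrate cycle member under 4 scalings of the arrays. One panel shows glycolysis and one the citrate cycle, with one line per gene and the median dashed. The scaling that centres the genes tested lowers every line by about 0.10. Quantile normalization moves genes unequally (Ogdh from 0.28 to 0.15, Aldoa from 0.25 to 0.26), while Idh1 stays the highest line.

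The pathways that border glycolysis and the cycle were counted from further lists. Beside these lists and those below, 34.0% of all genes tested were higher and 12.3% lower. In the scaling that centred the genes tested these shares of all genes were 21.2% and 23.9%. All 7 pentose phosphate genes, which draw glucose-6-phosphate into NADPH and ribose, were tested, and 5 were higher and 0 lower, with a median of 0.30. Pgd, phosphogluconate dehydrogenase, rose by 0.70 and Tkt, transketolase, by 0.60, while Rpia, the ribose-phosphate isomerase, and G6pdx, the entry enzyme, each rose by 0.30 (limma adjusted p = 1.08e-05, 5.35e-05, 0.00244 and 0.00364). Of 10 tested genes of glycogen metabolism 7 were higher and 1 lower, with a median of 0.37. Ppp1r3c, a glycogen-targeting phosphatase subunit, rose by 0.74, Pygm, muscle-type glycogen phosphorylase, by 0.50, and the phosphorylase kinase subunits Phkb and Phkg2 by 0.47 and 0.43 (limma adjusted p = 4.97e-05, 3.96e-04, 2.08e-04 and 0.00269). Both lists kept their direction in the 4 scalings, with 4 of 7 and 6 of 10 genes higher in the scaling that centred the genes tested.

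Other borders were mixed. Among 6 tested transport genes, Slc2a1, the glucose transporter GLUT1 of the blood-brain barrier and of astrocytes, rose by 0.84 and Bsg, the chaperone of the lactate carriers, by 0.42, while Mpc1, a subunit of the mitochondrial pyruvate carrier, fell by 0.24 (limma adjusted p = 2.88e-05, 0.0170 and 0.00427). Of 13 other glycolytic isozymes and regulators 2 were higher (Tigar at 0.36 and Pgm2l1 at 0.19) and 2 were lower (Fbp1 at −0.998 and Pfkfb3 at −0.18). Tigar and Fbp1 are phosphatases that oppose phosphofructokinase, Pgm2l1 makes sugar bisphosphates and Pfkfb3 makes the activator of phosphofructokinase. Of 12 other genes of the cycle and of pyruvate dehydrogenase control 3 were higher and 3 lower, among them the mitochondrial malic enzymes Me2 (0.58) and Me3 (0.33) and the succinate dehydrogenase membrane subunits Sdhd (−0.22) and Sdhc (−0.20). Of 6 shuttle genes, Slc25a12, the aspartate-glutamate carrier, rose by 0.34 and Gpd1, cytosolic glycerol phosphate dehydrogenase, by 0.52. In the scaling that centred the genes tested the other glycolytic list had 1 higher and 5 lower, the transport list 2 and 3, the other cycle list 2 and 4 and the shuttle list 2 and 1.

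Regulators of these pathways were also listed, and 6 of 9 tested were higher and 1 lower (4 and 1 in the scaling that centred the genes tested). Ppargc1a, a coactivator of mitochondrial genes, rose by 0.67 (limma adjusted p = 8.96e-06). Epas1, the hypoxia-inducible factor 2 alpha, rose by 0.49, Egln1, the oxygen-sensing prolyl hydroxylase, by 0.35 and Arnt, the partner of the hypoxia factors, by 0.33 (limma adjusted p = 6.53e-05, 1.38e-04 and 0.00386). The gene that fell was Esrra, an estrogen-related receptor that works with Ppargc1a, at −0.36 (limma adjusted p = 0.00753); it was named after its value was seen.

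Cell type markers were read beside these results, since neocortex RNA mixes many cells and a change in the number of cells of a type cannot be told apart from a change in RNA per cell. Markers of the labelled tissue were present: all 8 projection neuron and all 7 general neuron markers passed the signal filter, and the summed signal of the neuron markers was 33504 to 36059 in the young and 34204 to 36324 in the old. Of 7 tested astrocyte markers 6 were higher and 0 lower. The summed signal of the 8 listed, with Sox9 below the filter, was 12625 to 14239 in the young and 17256 to 18394 in the old, without overlap. Aldoc, the brightest of them, is also among the other glycolytic isozymes and was not called (difference 0.02, limma adjusted p = 0.638). Pyruvate carboxylase is known as an astrocyte enzyme in brain, so the increase of the astrocyte markers stands beside the rise of Pcx, and its part in the result was not tested. Of 7 microglia markers 4 were higher and 2 lower, with sums of 6004 to 6378 in the young and 7897 to 8428 in the old, and their part was not tested either. Of 7 oligodendrocyte markers 3 were higher, with overlapping sums. Of 5 tested endothelial markers 2 were higher (Flt1 at 0.66 and Ly6c1 at 0.45) and 0 lower, and the summed signal of the 6 listed was 3458 to 3828 in the young and 4065 to 5302 in the old, without overlap. Endothelial cells of the brain also carry Slc2a1, so this increase stands beside that of Slc2a1, and its part in it was not tested. Of the 8 projection neuron markers 2 were higher (Cux2 at 0.65 and Slc17a7 at 0.56) and 2 lower (Rorb at −0.52 and Fezf2 at −0.34). Of 6 interneuron markers 2 were higher (Pvalb at 0.37 and Slc32a1 at 0.28) and 0 lower, with overlapping sums. Ttr, the only choroid plexus marker tested, fell by 0.81 (limma adjusted p = 0.0445) with overlap between the ages. After quantile normalization its difference was −0.75 and was not called. Hba-a1, the only red blood cell marker tested, had a difference of −0.10 and was not called (limma adjusted p = 0.602). No probe set on the arrays read 0 (the lowest signal was 0.48), so a signal above 0 does not show that a marker was present. Some listed markers were dim, with a mean signal of 58.1 for Pecam1 of the endothelial list, 70.1 for Prlr of the choroid plexus list and 22.6 for Alas2 of the red blood cell list.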

How the data were processed

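Neocortex messenger RNA of 10 mice was measured, 1 array per mouse, and arrays were grouped by age per the labels. The authors deposited a linear signal intensity for each of 45037 probe sets. Per the submitters' processing notes the software was GCOS. Not given in the sources used here is how background was corrected, probes were summarised and arrays were scaled. The authors also deposited a comparison of the ages, with a signed fold, a lower bound for it and a p-value per probe set, per the file headers. Array medians lay between 114.5 and 122.61. Depth has no meaning here, and the 5 arrays per age limit the precision (median SE of a log2 change 0.07).

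Gene identifiers, updated through a RefSeq gene table of GRCm38.p6, gave 36299 probe sets 1 gene, 1261 several and 7477 none. Signals under 1 (55 values) were set to 1 and log2 was taken in the deposited scaling. Probe sets with a mean log2 above 6.89, the median of all, were tested, and the brightest of each gene was kept (11963 genes). Ages were compared with limma (3.58.1, R 4.3.3), with a variance trend, two-sided, and Benjamini-Hochberg adjustment over all genes tested. Without adjustment, 6431 genes had a p under 0.05. The fit was tested on simulated data. Statements on a single probe set use a fit over 19839 probe sets.

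All members are described, and of each bordering list up to 4 called genes with the smallest adjusted p are named; others are said to be outside this rule. The members and lists were chosen with earlier results of these data known, so their counts are descriptions. Promoter windows came from RefSeq. Alternatives covered scaling, an added constant of 16 or 64, filters, probe set rules, variance models, array weights, thresholds, mouse number as a block, and dropping 1 array at a time. Nothing in the labels says whether mice of an age shared a litter or a day. Figures were drawn with matplotlib 3.10.9 in Python 3.11.15 (pandas 2.3.3, numpy 2.4.6).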

Additional observations from a re-analysis of the deposited data

Results flagged for a closer look

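Within each age, the highest and lowest array of every tested member was compared with its neighbours by Dixon's ratio, the gap to the nearest array over the whole range. Of 72 groups of 5 arrays examined, 2 exceeded the 95% critical value, and about 1 in 20 would be flagged by chance. Ldha, a lactate dehydrogenase subunit, was one: the 5-month mouse 5 read 3874 while the other young arrays read 4450 to 4657 (ratio 0.753). The second was Idh3b, a subunit of the NAD-dependent isocitrate dehydrogenase: the 30-month mouse 6 read 4572 while the other old arrays read 4339 to 4397 (ratio 0.747).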

How the results depend on the processing

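Of the 15 members called higher, 10 were called higher under every alternative, as was 1 of the 4 lower members, Suclg1, and 7 of the 17 uncalled members were never called. The count of lower members, 4 as reported, was 7 after quantile normalization, 1 with arrays at the same median of all probe sets, 11 with arrays at the same median of the genes tested (chosen after seeing the data), 2 without a filter, 1 without a variance trend, 1 at adjusted p under 0.01 and 2 to 4 leaving out each array (2 without the 5-month mouse 1 or 2 or the 30-month mouse 2, 4 or 5). Higher glycolytic genes, 5 as reported, were 2 with the genes-tested median and 3 at adjusted p under 0.01, and 5 whichever array was left out. Lower glycolytic genes, 0 as reported, were 1 after quantile normalization, 2 with the genes-tested median, 1 with the upper-quartile filter, 1 with array weights and 0 to 1 leaving out arrays. Lower citrate cycle genes, 2 as reported, were 4, 1 and 5 in the same 3 scalings, 1 without a variance trend and 1 at adjusted p under 0.01. Higher citrate cycle genes, 5 as reported, were 3 among mitochondrial enzymes only and 4 to 5 leaving out arrays. The glycolysis median, 0.08, was −0.022 with the genes-tested median, 0.24 with the mean of a gene's probe sets and 0.04 (without the 5-month mouse 5) to 0.13 (without the 5-month mouse 1) leaving out arrays, (all genes 0.067 with that mean), and the citrate cycle median, 0.03, was −0.076, 0.11 and −0.0019 (without the 5-month mouse 5) to 0.049 (without the 5-month mouse 1). All genes called, 5534, were 3685 at adjusted p under 0.01 and 4823 to 5573 leaving out arrays, and higher members 13 to 15. The median of all genes turned to −0.021 with the genes-tested median, and Dlat turned to −0.015 (limma adjusted p = 0.868) with the mean of its probe sets. The mouse numbers shared by the ages, 2 to 5, did not pair the arrays (correlation of same-numbered deviations −0.33, −0.04, 0.08 and 0.11), and over those 8 arrays 1 member and 1 citrate cycle gene were lower with mouse number as a replicate block, against 3 and 2 over the same arrays with no block (chosen after seeing the data). The causes of these shifts were not tested.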
